A study of Mus musculus with 8 samples.

Results

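Genes of the oligodendrocyte lineage and of myelin were followed in bulk RNA from the mouse striatum, where the basal ganglia receive most of their input. The set is a list of 34 named genes out of 31417 in the count table, named as known genes of the lineage with earlier results of these data in view, and all 34 passed the filter on low counts. Knockout mice (KO), labelled Dclk3 knock out, were compared with wild-type mice (WT), labelled as controls for the knockout. There were 4 mice per genotype, all aged 12 months, and each library came from 1 striatum of 1 mouse. Dclk3 encodes doublecortin-like kinase 3, a protein kinase enriched in striatal neurons. The sources used here give neither how the deletion was made nor the strain or sex of the mice.

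Oligodendrocytes wrap axons of the central nervous system in myelin, a stack of membrane rich in galactolipids and in a few very abundant proteins. They arise from dividing precursor cells, pass through a premyelinating stage in which genes such as Gpr17 and Enpp6 are switched on, and then make myelin. The transcription factors OLIG2 and SOX10 mark the whole lineage, and MYRF drives the myelin genes. In the striatum these cells lie both among the neurons and in the axon bundles that cross the nucleus, and neighbouring white matter is rich in them. The genes were therefore grouped as precursor (2 genes), lineage transcription factors (4), differentiating (3) and mature (25), the last holding mature transcription factors (2), myelin structure and adhesion (12), lipid, ion and small-molecule metabolism (6) and other genes of mature oligodendrocytes (5).

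Total counts ran from 24441242 to 37145559 per library. Dclk3 checked the labels, with a log2 fold change of KO over WT of -2.06 and an adjusted p of 0.000773 (quasi-likelihood test of edgeR, adjusted after Benjamini and Hochberg), and an exact two-sided permutation p of 0.0286, the smallest that 4 against 4 mice allow. Dclk3 was the 1 gene called among 16511 tested, a share of 0.00606%. Some libraries stood apart. WT replicate 4 held 2717 TMM-scaled CPM of Ttr, the transthyretin gene of choroid plexus, against 23.7 to 208 CPM in the other 7 libraries. The 9 thalamic and subcortical glutamatergic markers summed to 513 CPM in KO replicate 4 and to between 187 and 331 CPM in the other 7 libraries.

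The oligodendrocyte genes were abundant and every stage was detected. Together they took 0.910% to 1.09% of all counts in KO libraries and 0.771% to 1.03% in WT libraries. Per kilobase of exon, Mbp, which encodes myelin basic protein, stood highest, with 494 CPM per kb in KO and 439.8 CPM per kb in WT. Mobp, which encodes myelin-associated oligodendrocyte basic protein, followed with 223 CPM per kb in KO and 179.8 CPM per kb in WT. Plekhb1 (147 CPM per kb in KO, 129.7 in WT), Mal (146 in KO, 126 in WT), Cnp (133 in KO, 119.7 in WT) and Qdpr (125 in KO, 123 in WT) came next, and their ranges over the libraries overlapped each other.

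At the low end, Nkx2-2, a homeobox factor gene of precursors and differentiating cells, had 0.971 CPM per kb in KO and 0.930 CPM per kb in WT. The precursor gene Cspg4 had 2.15 CPM per kb in KO and 2.07 in WT, and Enpp6, of the premyelinating stage, 3.05 in KO and 2.57 in WT. The myelin genes Mbp, Mog and Mobp were detected in all 8 libraries of the labelled brain tissue. Mog stood well below the other 2, at 54.8 CPM per kb in KO and 47.1 in WT.

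**Figure D1:**
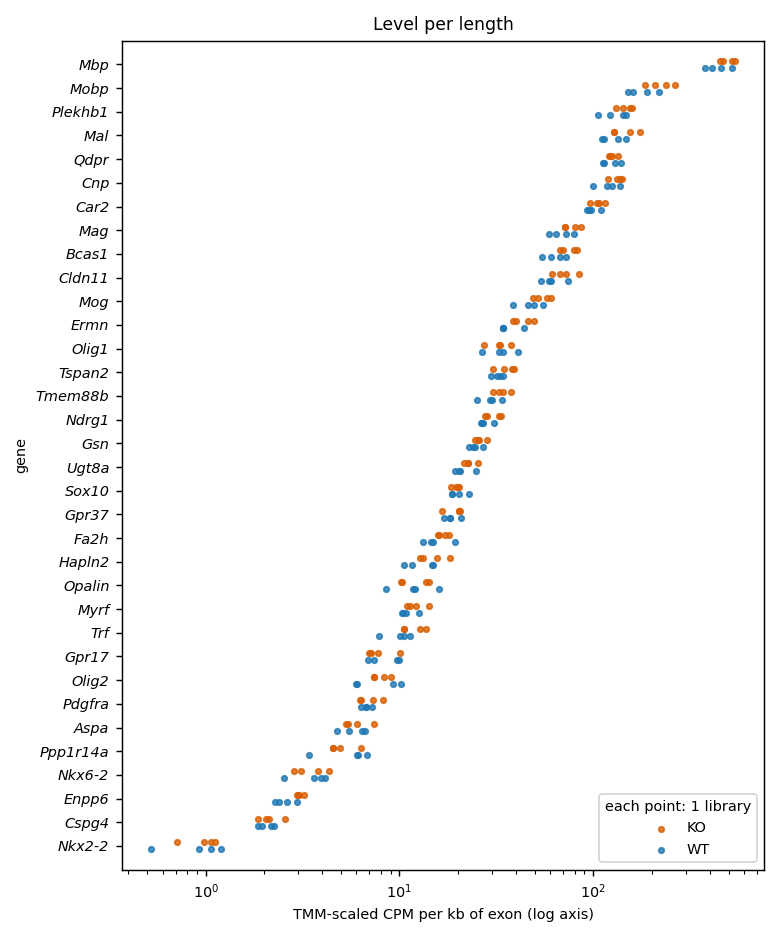
Level of each of the 34 genes per length, as TMM-scaled CPM per kb of exon on a log axis, with 1 point per library (KO in orange, drawn just above WT in blue), genes ordered by their WT mean. Mbp lies highest and Nkx2-2 lowest in both genotypes, and for nearly all genes the KO and WT points share one range.

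No oligodendrocyte gene passed the test between the genotypes. Of the 34 genes 0 had an adjusted p under 0.05 (edgeR's quasi-likelihood test, all adjusted p 0.999), and likewise 0 in DESeq2 and limma-voom, against 0.00606% of all genes tested. By unadjusted p under 0.05 the count was 4 of 34 (11.8%), namely Enpp6, Bcas1, Ermn and Mobp, all with positive log2 fold changes, where 1.96% of all genes tested had such a p with a positive change. A log2 fold change above 0 was seen for 29 of 34 genes (85.3%), against 49.5% of all genes tested. Markers of astrocytes (9 of 10 above 0), microglia (9 of 9), endothelium (7 of 8) and blood cells (5 of 5) leaned the same way. Ependymal markers (0 of 6 above 0), choroid plexus markers (0 of 7, with WT replicate 4 highest) and cortical markers (1 of 8) went the other way. Thalamic and subcortical markers had 9 of 9 above 0 and spiny neuron markers 7 of 10. Axon and neurofilament genes had 4 of 8 above 0 and Schwann cell markers 2 of 3 tested. The median of the oligodendrocyte genes was 0.13 on the log2 scale, against -0.0011 for all genes tested. Medians were 0.16 for the astrocyte, 0.084 for the microglia, 0.23 for the endothelial and 0.48 for the blood cell markers. They were -0.25 for the ependymal, -1.59 for the choroid plexus and -0.17 for the cortical markers. The thalamic and subcortical markers had a median of 0.36, the spiny neuron markers 0.027, the axon genes 0.0008 and the Schwann cell markers 0.013. These counts are descriptions of a list whose genes vary together between mice, and no test was made of the list.

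Leaving out single libraries moved the median between 0.10 (without WT replicate 2) and 0.20 (without WT replicate 1), and it was 0.07 without replicate 4 of both genotypes. For 32 of the 34 genes the 95% interval reached neither a 1.5-fold increase nor a decrease of that size. The exceptions were Mobp, with an upper bound of 0.62 on the log2 scale, and Nkx2-2, with one of 0.59. In bulk tissue, fewer cells of a type and less RNA per cell cannot be told apart, so all values below are levels in the tissue and not per cell.

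**Figure D2:**
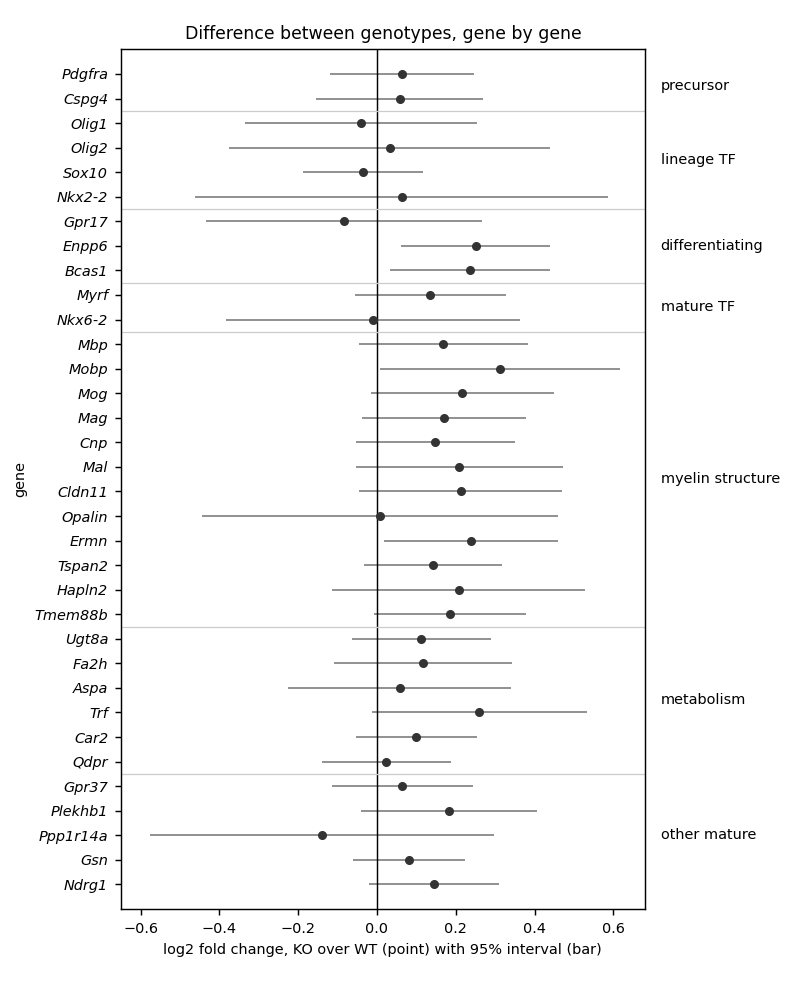
Log2 fold change of KO over WT for each gene (points) with its 95% interval (bars), grouped by role, with the line at 0 marking equal levels. The 12 myelin structure genes all lie above 0, between 0.01 and 0.31, while the precursor genes and lineage transcription factors lie between -0.04 and 0.06, and 30 of the 34 intervals include 0.

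Among the genes of myelin structure and adhesion, all 12 had log2 fold changes above 0, with a median of 0.20, and 0 passed the test. That median was 0.12 without KO replicate 4, 0.12 without WT replicate 2 and 0.11 without replicate 4 of both genotypes. Mbp had 4566, 3819.7, 3934 and 4417 CPM in KO replicates 1 to 4, against 4411, 3187, 3838 and 3462 CPM in WT replicates 1 to 4. The groups overlapped, with WT replicate 1 close to the highest KO libraries and WT replicate 2 the lowest of all. The means were 4184 ± 363 CPM in KO and 3725 ± 529.5 CPM in WT (SD, n = 4 each), which gave 0.17 on the log2 scale with a 95% interval from -0.05 to 0.38. Without WT replicate 1 that value was 0.26, without WT replicate 2 it was 0.10, and without replicate 4 of both genotypes 0.11. Mbp gave 106379 to 136852 counts per library, so the spread between mice, not counting error, set that interval.

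Mobp had the highest log2 fold change of the set, 0.31 (SE 0.14, 95% interval 0.01 to 0.62, unadjusted p = 0.046 in edgeR). Its values were 1622, 1261, 1432 and 1801 CPM in KO, against 1501, 1035, 1298 and 1091 CPM in WT. KO replicates 1 and 4 lay above all WT libraries, while KO replicates 2 and 3 lay within the WT range. Without replicate 4 of both genotypes the value was 0.17. Its exons overlap those of Gm38642 on the same strand, so reads of that gene may be included.

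Ermn, which encodes the cytoskeletal protein ermin of the outer myelin layers, had 179, 139.6, 146 and 166 CPM in KO, against 159.7, 125, 125 and 125 CPM in WT. WT replicates 2 to 4 were nearly equal and below every KO library, and WT replicate 1 lay among the KO libraries. The log2 fold change was 0.24 (95% interval 0.02 to 0.46, unadjusted p = 0.0362 in edgeR). With single libraries left out it ran from 0.17 without KO replicate 1 (unadjusted p = 0.117 in edgeR) to 0.34 without WT replicate 1 (0.00235).

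Most of the other myelin structure genes had the same high and low libraries. Mog, an immunoglobulin-like protein of the outermost myelin surface, averaged 93.3 ± 9.04 CPM in KO and 80.3 ± 11.8 CPM in WT, with a log2 fold change of 0.22. Mag, an adhesion protein of the membrane facing the axon, averaged 314 ± 29.7 CPM in KO and 279 ± 36.4 CPM in WT (0.17). Cnp, the cyclic nucleotide phosphodiesterase that keeps cytoplasmic channels of myelin open, averaged 483 ± 36.1 CPM in KO and 436 ± 57.4 CPM in WT (0.15). In each of these the groups overlapped, with WT replicate 1 inside the KO range. Without WT replicate 2 the log2 fold change was 0.13 for Mog, 0.10 for Mag and 0.069 for Cnp, and without replicate 4 of both genotypes it was 0.086 for Mag.

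Cldn11, the claudin of the tight junctions within myelin, had 134 ± 18.4 CPM in KO and 115 ± 16.6 CPM in WT, a log2 fold change of 0.21, and Mal, a lipid raft proteolipid, 406 ± 60.7 CPM in KO and 351 ± 47.8 CPM in WT, also 0.21. Hapln2, a link protein of nodes of Ranvier, had a log2 fold change of 0.21, Tmem88b 0.19 and the tetraspanin gene Tspan2 0.14. Without KO replicate 4 these values were 0.12 for Cldn11, 0.12 for Mal, 0.099 for Hapln2 and 0.092 for Tspan2. Hapln2 was at 0.12 without WT replicate 4, and Tmem88b at 0.12 without WT replicate 2. Without replicate 4 of both genotypes Cldn11 was at 0.059, Mal at 0.061 and Hapln2 at 0.012. Opalin, a glycoprotein specific to the central myelin of mammals, was the exception. It had 42.0, 40.5, 30.4 and 30.0 CPM in KO, against 35.4, 25.1, 47.2 and 34.4 CPM in WT, with a log2 fold change of 0.01 (95% interval -0.44 to 0.46). Opalin was highest in WT replicate 3 and low in KO replicate 4, unlike Mobp, and was chosen for full values after its values were seen.

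Promoter sequences are shown for the 4 genes that held the MYRF recognition word, all of them myelin structure genes, and for Mobp, which held the most copies of the SOX word. RefSeq promoter entries (GRCm38.p6) were found for 24 of the 34 genes. In the 250 bases before the annotated start, CTGGCAC or CTGGTAC, the forms of the MYRF recognition word, occurred on either strand in 4 of the 24 genes (16.7%), Mog, Mag, Cnp and Hapln2, against 6.79% of 27025 genes. The SOX word ACAAAG occurred in 6 of 24 (25%), Mobp, Mag, Cnp, Opalin, Tspan2 and Plekhb1, against 18.6% of all genes, and the E-box CAGCTG in 3 of 24 (12.5%), Hapln2, Aspa and Gsn, against 14.7%. None of these words contains another. Mobp, whose log2 fold change was the highest, held 6 copies of the SOX word, all on the strand opposite to the gene, and was the 1 gene of 27025 with at least 6. A match of letters is a description, not a bound site. The sequences run 5′ to 3′ on the strand of the gene, stop before the first annotated exon base, and show in capitals 1 kind of word per gene. They lie at chr9:120149492-120149706 (plus strand), chr7:30914874-30915113 (minus strand), chr17:37023399-37023648 (minus strand), chr11:100574689-100574903 (plus strand) and chr3:88027584-88027761 (minus strand).
Mobp: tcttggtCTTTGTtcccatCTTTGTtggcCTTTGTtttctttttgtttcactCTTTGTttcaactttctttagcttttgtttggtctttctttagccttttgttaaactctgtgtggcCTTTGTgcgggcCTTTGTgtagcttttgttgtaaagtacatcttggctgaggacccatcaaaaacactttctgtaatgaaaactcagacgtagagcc
Mag: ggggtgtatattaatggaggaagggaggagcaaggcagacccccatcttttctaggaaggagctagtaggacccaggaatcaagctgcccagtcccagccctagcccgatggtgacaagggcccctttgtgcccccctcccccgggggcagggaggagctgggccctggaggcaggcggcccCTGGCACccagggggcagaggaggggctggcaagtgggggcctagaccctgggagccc
Mog: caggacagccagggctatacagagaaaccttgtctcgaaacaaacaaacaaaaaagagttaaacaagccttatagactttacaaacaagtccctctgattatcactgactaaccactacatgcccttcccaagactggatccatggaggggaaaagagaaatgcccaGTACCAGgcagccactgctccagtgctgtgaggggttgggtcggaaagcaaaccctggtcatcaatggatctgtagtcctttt
Cnp: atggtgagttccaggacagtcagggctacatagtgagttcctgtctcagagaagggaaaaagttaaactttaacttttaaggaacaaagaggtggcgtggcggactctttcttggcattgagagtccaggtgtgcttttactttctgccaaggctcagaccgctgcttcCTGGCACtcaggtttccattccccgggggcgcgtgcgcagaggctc
Hapln2: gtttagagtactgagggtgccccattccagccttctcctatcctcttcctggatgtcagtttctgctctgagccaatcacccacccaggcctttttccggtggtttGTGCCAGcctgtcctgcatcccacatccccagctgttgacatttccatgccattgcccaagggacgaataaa
Capitals mark the SOX word in Mobp, read as its reverse complement, and the MYRF word in the other genes, read as its reverse complement in Mog and Hapln2. The SOX word of Mag and Cnp and the E-box of Hapln2 are left in lower case.

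**Figure D3:**
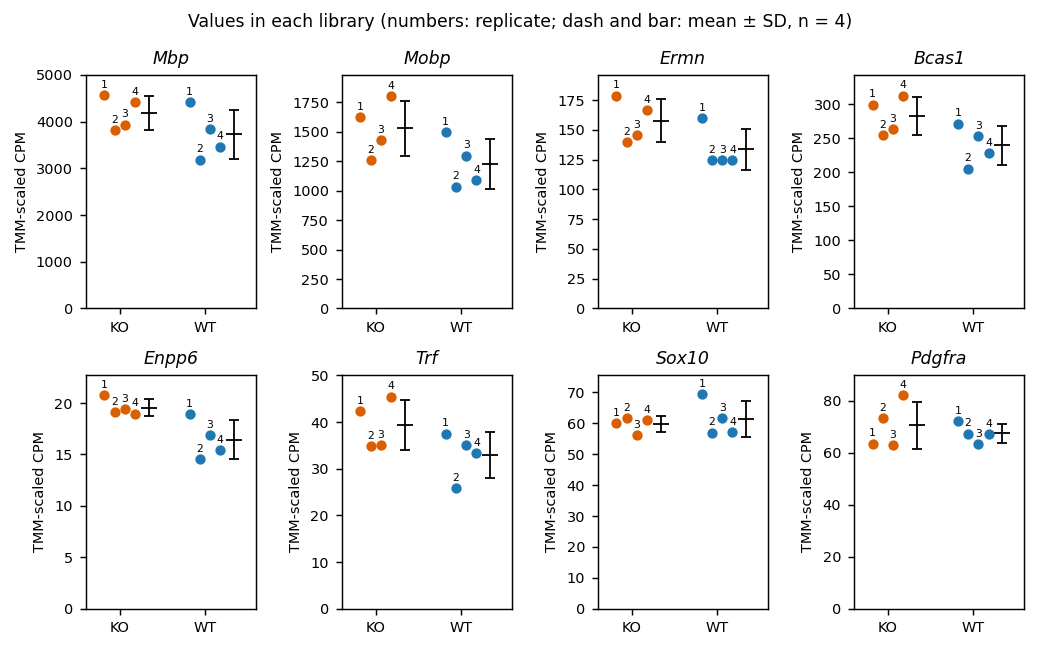
TMM-scaled CPM in every library for 8 genes, with KO left of WT, replicate numbers above the points, and the mean ± SD (n = 4) as a dash and bar; all vertical axes start at 0. WT replicate 1 lies inside the KO range for 6 of the genes, above it for Sox10 and less than 0.1 CPM below it for Enpp6, and WT replicate 2 is the lowest library for Mbp, Mobp, Bcas1, Enpp6 and Trf.

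Genes of myelin lipid, ion and small-molecule metabolism had 6 of 6 log2 fold changes above 0, with a median of 0.11 and 0 past the test. That median was 0.061 without KO replicate 1, 0.175 without WT replicate 1 and 0.060 without WT replicate 2. Trf, which encodes the iron carrier transferrin made by oligodendrocytes, had 42.4, 34.9, 35.0 and 45.4 CPM in KO, against 37.5, 25.9, 35.0 and 33.3 CPM in WT. The groups overlapped, and WT replicate 2 stood below the rest. Its log2 fold change was 0.26 (95% interval -0.01 to 0.53), and 0.16 without WT replicate 2. Car2, carbonic anhydrase II, had 277, 234, 259.9 and 252 CPM in KO, against 264, 224, 231 and 234 CPM in WT, a log2 fold change of 0.10.

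The galactolipid enzymes lay close to these. Ugt8a, the galactosyltransferase that makes galactosylceramide, averaged 104 ± 7.42 CPM in KO and 96.3 ± 11.3 CPM in WT, a log2 fold change of 0.11. Fa2h, the fatty acid hydroxylase of myelin lipids, averaged 50.4 ± 2.95 CPM in KO and 46.5 ± 7.89 CPM in WT, one of 0.12. Without WT replicate 1 Ugt8a was at 0.20 and Fa2h at 0.24, and without WT replicate 2 at 0.070 and 0.050 in that order; Ugt8a was at 0.064 without KO replicate 1 and Fa2h at 0.064 without replicate 4 of both genotypes. Aspa, which splits N-acetylaspartate and feeds acetate to lipid synthesis, had 0.06, and Qdpr, a reductase that regenerates the biopterin cofactor, 0.02. Aspa and Qdpr had their highest WT value in replicate 3, as Opalin did.

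Of the other mature genes, 4 of 5 had log2 fold changes above 0 and 0 passed the test. Ndrg1, linked in people to a demyelinating neuropathy, had 219, 188, 183 and 216 CPM in KO, against 202, 178, 175 and 173 CPM in WT, a log2 fold change of 0.15 (95% interval -0.02 to 0.31). Plekhb1, a membrane-bound pleckstrin homology protein, had 591, 489, 529.5 and 577 CPM in KO, against 547, 394, 529 and 455 CPM in WT, one of 0.18. In both genes WT replicate 1 lay inside the KO range. Plekhb1 was at 0.099 without WT replicate 2, and Ndrg1 at 0.087 without replicate 4 of both genotypes.

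The log2 fold change was 0.08 for Gsn, the actin-severing protein gelsolin, and 0.06 for the receptor gene Gpr37. Ppp1r14a, an inhibitor of myosin phosphatase, had the lowest log2 fold change of the set, -0.14 (95% interval -0.58 to 0.30), at 6.93 ± 1.15 CPM in KO and 7.65 ± 2.04 CPM in WT. WT replicate 4 was at 4.69 CPM of Ppp1r14a and the other WT libraries at 8.22 to 9.32 CPM, and the value ran from -0.32 without WT replicate 4 to -0.034 without WT replicate 1, and was -0.44 without replicate 4 of both genotypes. Between 151 and 293 counts per library lay behind it.

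Transcription factors showed no shared direction, with 1 of 2 mature factors and 2 of 4 lineage factors above 0 on the log2 scale and 0 past the test. Myrf, the activator of myelin genes, had 104, 93.3, 97.4 and 121 CPM in KO, against 108, 89.8, 88.6 and 92.4 CPM in WT, with WT replicate 1 above KO replicates 1 to 3. Its log2 fold change was 0.14 (95% interval -0.06 to 0.33), 0.054 without KO replicate 4, 0.20 without WT replicate 1 and 0.043 without replicate 4 of both genotypes. Nkx6-2, a homeobox factor of myelinating cells, had 7.22, 5.92, 5.46 and 8.29 CPM in KO, against 7.85, 6.90, 7.50 and 4.82 CPM in WT, a log2 fold change of -0.01. For Nkx6-2 WT replicate 4 was the lowest library and KO replicate 4 the highest.

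Sox10, required for myelin gene expression throughout the lineage, had 60.0, 61.8, 56.2 and 61.0 CPM in KO, against 69.4, 57.0, 61.7 and 57.0 CPM in WT. The groups overlapped fully but for WT replicate 1, and the log2 fold change was -0.04 (95% interval -0.19 to 0.12). Olig1 had 71.2, 70.4, 59.0 and 81.7 CPM in KO, against 74.4, 88.0, 70.2 and 57.6 CPM in WT, a log2 fold change of -0.04. Olig2, its neighbour on chromosome 16 and the factor that specifies the lineage, had 0.03, and Nkx2-2 had 0.06 with a 95% interval from -0.46 to 0.59. Olig1 and Olig2 were highest in WT replicate 2, the library that was lowest for most myelin genes.

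The differentiating genes split, with 2 of 3 log2 fold changes above 0 and 0 past the test. Enpp6, a choline phosphodiesterase of newly formed oligodendrocytes, had 20.7, 19.1, 19.4 and 19.0 CPM in KO, against 18.9, 14.6, 16.9 and 15.4 CPM in WT. It was the 1 gene of the 34 (2.94%) whose groups did not overlap, by a margin under 0.1 CPM between KO replicate 4 and WT replicate 1, where 1.07% of all genes tested had every KO library above every WT library and 1.93% did not overlap in either direction. The means were 19.6 ± 0.812 CPM in KO and 16.5 ± 1.92 CPM in WT, a log2 fold change of 0.25 (SE 0.09, 95% interval 0.06 to 0.44), with the smallest unadjusted p of the set, 0.0134 in edgeR, and an adjusted p of 0.999.

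Bcas1, a protein of early myelinating cells that stays on in mature ones, had 299, 255, 263 and 313 CPM in KO, against 271, 205, 254 and 229 CPM in WT. Its KO libraries lay above WT replicates 2 to 4, and WT replicate 1 stood among them. The log2 fold change was 0.24 (95% interval 0.03 to 0.44, unadjusted p = 0.0262 in edgeR). With single libraries left out it ran from 0.17 without WT replicate 2 (unadjusted p = 0.0724 in edgeR) to 0.30 without WT replicate 1 (0.00829). Gpr17, a receptor of the premyelinating stage, went the other way, with 37.1, 36.3, 40.4 and 52.3 CPM in KO, against 51.8, 50.4, 38.2 and 35.7 CPM in WT, and a log2 fold change of -0.08 (95% interval -0.43 to 0.27). Gpr17 was high in KO replicate 4 and WT replicates 1 and 2.

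Precursor genes lay close to 0, with 2 of 2 log2 fold changes above it and 0 past the test. Pdgfra, the growth factor receptor of precursors, had 63.5, 73.4, 62.8 and 82.2 CPM in KO, against 72.0, 67.4, 63.2 and 67.2 CPM in WT. All WT libraries lay within the KO range. On the log2 scale KO over WT was 0.06, with an SE of 0.08 and a 95% interval from -0.12 to 0.25. Cspg4, a membrane proteoglycan of precursors that pericytes also make, had 24.6, 25.4, 22.2 and 30.5 CPM in KO, against 27.0, 25.8, 22.3 and 23.4 CPM in WT, a log2 fold change of 0.06. For both genes KO replicate 4 was the highest and KO replicate 3 the lowest of the 8 libraries, and without KO replicate 4 the precursor median was -0.03.

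**Figure D4:**
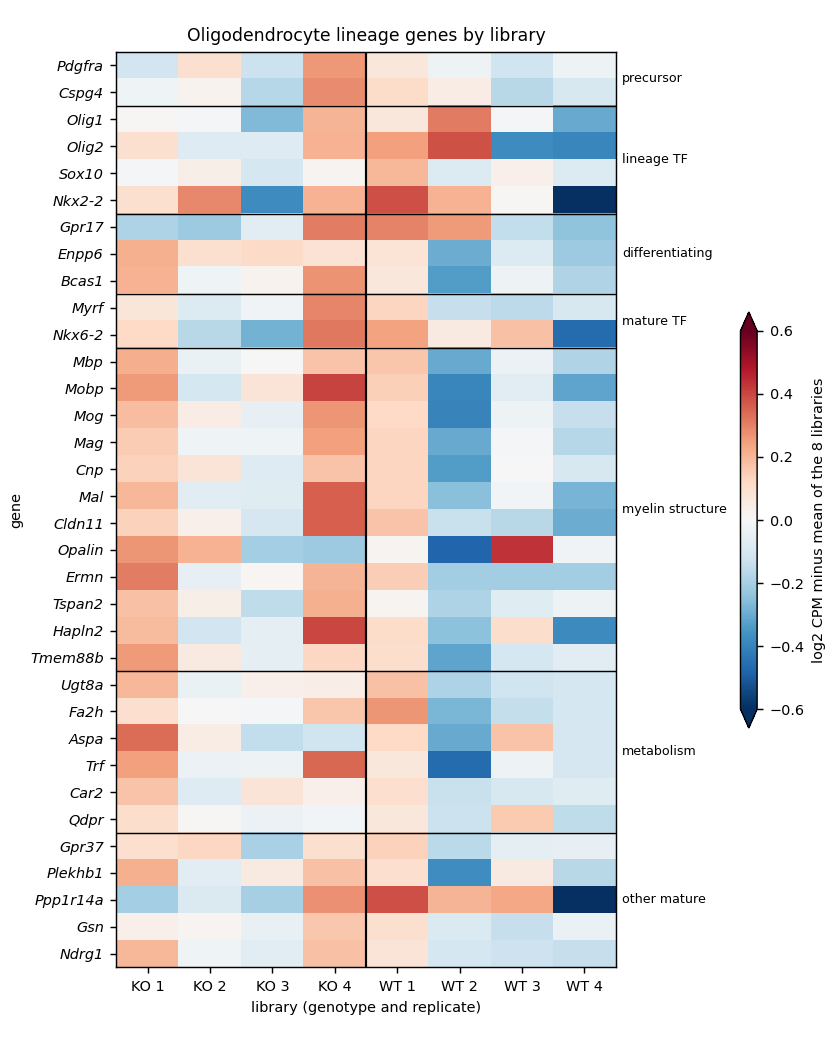
Log2 CPM of each gene (rows, grouped by role) in each library (columns, KO left of WT) minus the mean of the 8 libraries; red is above that mean, blue below, and colours saturate at 0.6. KO replicates 1 and 4 are mostly red, WT replicate 1 is above the mean in all 34 genes and WT replicate 4 in 0, and WT replicate 2 is blue for most mature genes and red for Olig1, Olig2 and Gpr17.

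The genes varied together from library to library within each genotype. KO replicate 4 lay above the mean of the 8 libraries in 31 of 34 genes and KO replicate 1 in 29, but KO replicate 2 in 16 and KO replicate 3 in 8. WT replicate 1 lay above it in 34 genes and WT replicate 4 in 0. Of the 25 mature genes 12 had their highest value in KO replicate 4 and 8 in KO replicate 1, and 14 had their lowest in WT replicate 2 and 7 in WT replicate 4. WT replicate 1 exceeded the KO mean in 20 of the 25. The median SD within a genotype was 0.17 on the log2 scale for the mature genes, 0.15 for the precursor genes and 0.26 for the lineage transcription factors, against 0.14 over all genes tested and 0.115 over the 12823 genes at or above the lowest mean level of the set.

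Averaged per library, the 25 mature genes stood 0.167, -0.013, -0.063 and 0.186 log2 units from their overall mean in KO replicates 1 to 4, against 0.134, -0.225, -0.010 and -0.176 in WT replicates 1 to 4. The group means were 0.069 ± 0.126 in KO and -0.069 ± 0.164 in WT (SD, n = 4 each), a difference of 0.138. That was smaller than the SD among WT mice and close to that among KO mice. The SD describes single mice and is not the error of a mean, and the difference of these averages was not tested. The 3 differentiating genes stood at 0.069 ± 0.114 in KO and -0.069 ± 0.154 in WT, also a difference of 0.138. The 2 precursor genes stood at 0.028 ± 0.184 in KO and -0.027 ± 0.099 in WT, a difference of 0.055. The mature average minus the precursor average, a measure of the stage balance, was 0.237, -0.071, 0.087 and -0.086 in KO, against 0.045, -0.234, 0.134 and -0.112 in WT. KO replicate 1 stood above all WT libraries and WT replicates 2 and 4 below all KO libraries, and the other values overlapped. The group means of the balance were 0.042 ± 0.152 in KO and -0.042 ± 0.164 in WT. Their difference of 0.084 was smaller than the SD of single mice in either genotype and was likewise not tested. For the differentiating average minus the precursor average the group means were 0.042 ± 0.142 in KO and -0.042 ± 0.115 in WT, again a difference of 0.084. Both balances rest on only 2 precursor genes. The 12 further precursor genes described below ordered the libraries otherwise. Their averages were -0.019, -0.015, -0.073 and 0.096 in KO replicates 1 to 4. In WT they were 0.057, 0.128, -0.074 and -0.099, with WT replicate 2 the highest of all.

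**Figure D5:**
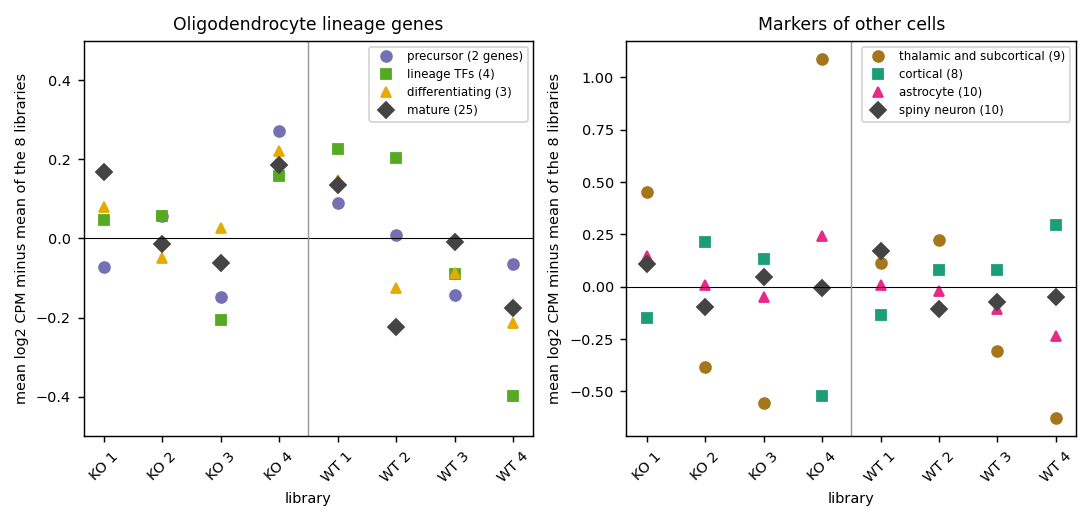
Left, average deviation of log2 CPM from the 8-library mean for the precursor, lineage transcription factor, differentiating and mature genes in each library, KO left of WT. Right, the same for markers of other cells on a wider scale, where KO replicate 4 is at 1.089 for thalamic and subcortical markers and at -0.522 for cortical markers.

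Markers of other cells and of tissue next to the striatum also differed between libraries. Thalamic and subcortical markers stood at 0.451, -0.385, -0.556 and 1.089 log2 units in KO replicates 1 to 4, against 0.115, 0.223, -0.309 and -0.628 in WT, with all 9 markers detected and log2 fold changes above 0 in 9 of 9. KO replicates 1 and 4 were thus the highest both for these and for the mature oligodendrocyte genes, while WT replicate 2 was above 0 for the thalamic markers and lowest for the mature genes. Cortical markers stood at -0.147, 0.212, 0.132 and -0.522 in KO, against -0.133, 0.082, 0.078 and 0.297 in WT, and the 3 libraries below 0 were the 3 with the highest mature oligodendrocyte average. Spiny neuron markers, which define the striatum, summed to between 4377 and 5005 CPM in KO and between 4412 and 5244 CPM in WT.

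By their average on the log2 scale, markers of astrocytes, microglia, endothelium and blood cells were likewise high in KO replicate 4. For the most part they were also high in KO replicate 1. Ependymal markers stood at 0.025 log2 units in KO replicate 1 and -0.132 in KO replicate 4, and choroid plexus markers at 0.525 and -0.317. Astrocyte markers stood at 0.149, 0.010, -0.049 and 0.244 log2 units in KO replicates 1 to 4, against 0.007, -0.018, -0.108 and -0.234 in WT replicates 1 to 4. They summed to between 6238 and 6757 CPM in KO and between 5617 and 6224 CPM in WT, and 5 of the 10 had an unadjusted p under 0.05 in edgeR. Microglia markers stood at 0.050, -0.010, -0.061 and 0.201 in KO, against 0.080, -0.082, 0.000 and -0.177 in WT, with 0 of 9 at such a p. By these averages KO replicate 4 was the highest and WT replicate 4 the lowest library in both lists. By summed CPM the astrocyte order differed. KO replicate 1 was then the highest library (6757 CPM) and KO replicate 4 the lowest KO library (6238 CPM). WT replicate 3 was the lowest of all (5617 CPM), below WT replicate 4 (6160 CPM).

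Endothelial markers stood at 0.222, 0.058, -0.059 and 0.235 in KO, against -0.032, -0.125, -0.349 and 0.050 in WT, with 1 of 8 at an unadjusted p under 0.05. Blood cell markers stood at 0.700, -0.061, -0.109 and 0.475 in KO, against -0.107, -0.690, -0.109 and -0.099 in WT, with 3 of 5 at such a p. Blood cell markers were lowest in WT replicate 2, as most mature oligodendrocyte genes were. No marker of the astrocyte, microglia, endothelial and blood cell lists was at 0 in all libraries, and 0 passed the adjusted threshold. The part of the neighbouring tissue and of these other cells in the oligodendrocyte values was not tested.

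Other genes of the lineage were taken from lists of known stage markers. Of 30 further myelin and mature genes 25 had log2 fold changes above 0 and 5 below, with a median of 0.07 and 0 past the test. Klk6, a protease of oligodendrocytes, had 11.8 ± 0.744 CPM in KO and 8.93 ± 1.47 CPM in WT, a log2 fold change of 0.41 (unadjusted p = 0.00354, adjusted p = 0.999 in edgeR). Apod, a lipid carrier, had 0.36, Anln, an actin-binding scaffold of myelin septin filaments, 0.29, and the connexin gene Gjc3 0.20. For Klk6, Anln and Apod WT replicate 1 was again the highest WT library, at 11.1, 96.8 and 278 CPM, and lay inside the KO range for all 3.

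Among 12 tested of 13 further differentiating genes, 9 had log2 fold changes above 0 and 3 below, with a median of 0.05 and 0 past the test. Tns3, a tensin of newly forming oligodendrocytes, had 0.20, the transcription factor gene St18 0.18 and the calcium channel gene Itpr2 0.15. Tcf7l2, which thalamic neurons also express, had 12.8, 4.34, 4.34 and 17.3 CPM in KO, against 6.87, 7.83, 6.10 and 3.76 CPM in WT. Tcf7l2 is itself among the 9 thalamic and subcortical markers, so its likeness to their average is partly built in. Among 12 further precursor genes, 5 had log2 fold changes above 0 and 7 below, with a median of -0.0091 and 0 past the test. Ptprz1, a receptor phosphatase shared with astrocytes, had 0.06, the proteoglycan gene Vcan 0.07, Xylt1 -0.08 and Sox5 -0.10.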

How the data were processed

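The authors deposited raw read counts per Ensembl gene, 1 column per library, in a single table. Per the labels' protocols, poly(A) RNA (1000 ng of total RNA) was made into stranded dUTP libraries with 12 PCR cycles. Per the submitters' processing notes, bcl2fastq 2.17.1.14 was used and the build was mm10; the aligner, the counter and the strand setting are not named in the labels. Symbols, positions and exon lengths came from GENCODE M21 (GRCm38, the assembly of mm10), which matched 31292 of 31417 identifiers.

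Genes were filtered with filterByExpr (minimum count 10), leaving 16511, scaled by TMM and tested with edgeR 4.0.16 in R 4.3.3 (robust quasi-likelihood, genotype as the only term, 8 libraries), with Benjamini-Hochberg adjustment of p across all of these genes and a threshold of 0.05. Intervals are 95%, derived from the quasi-likelihood statistic. DESeq2 1.42.0 and limma 3.58.1 served as alternatives. The pipeline was tested on simulated data. Within a genotype no 2 libraries agreed within sampling noise (chi-square per degree of freedom 7.07 to 32.1 over 12 pairs). Counting error alone is not the spread between mice, and PCR copies are not independent molecules.

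The genes, their grouping and the lists were chosen with earlier results of these data known, so no list gives independent support. Values per library are given for Mbp and the 2 genes with the smallest p in each role; others given in full were chosen after their values were seen. Exons of Mobp, Pdgfra and Trf overlap another gene on the same strand, and those of Bcas1, Cnp, Ermn, Gpr17, Ndrg1, Nkx2-2, Nkx6-2, Olig1, Qdpr and Tspan2 on the opposite strand only, so their counts can include reads of it. Promoters are RefSeq's, build GRCm38.p6.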

Additional observations from a re-analysis of the deposited data

Results flagged for a closer look

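In 3 of 68 groups of 4 libraries a single library lay far from the rest by Dixon's criterion for 4 values, a share that chance alone gives in about 1 of 20 groups. Gpr37 was at 100.1 CPM in KO replicate 3, against 122 to 125 CPM in the other KO libraries. Ermn was at 159.7 CPM in WT replicate 1, against 125 CPM in each of the other WT libraries. Ndrg1 was at 202 CPM in WT replicate 1, against 173 to 178 CPM in the other WT libraries. WT replicate 1 was also the highest WT library in 29 of the 34 genes.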

How the results depend on the processing

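The alternatives were RLE, upper-quartile or total-count scaling, no filter or one of 1 CPM in 4 libraries, DESeq2, limma-voom with quality weights, a replicate block, and libraries left out. Under all 17 of them 0 of the 34 genes passed the threshold, with the lowest adjusted p at 0.235 (edgeR, Ppp1r14a without replicate 4 of both genotypes). The number of all genes called was 1 in the report's fit, 3 without replicate 4 of both genotypes, 2 in DESeq2, and 1 to 2 when single libraries were left out; the cause was not tested. With no filter the 1 gene called was Malat1 and not Dclk3. The count of oligodendrocyte genes above 0 ran from 24 to 32, lowest without replicate 4 of both genotypes and highest without WT replicate 1. Their median log2 fold change ran from 0.058 (limma-voom) to 0.20, and that of the mature genes from 0.086 to 0.22. Direction was the same under all alternatives for 23 of 34 genes.

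Outside single omissions, the sign turned without replicate 4 of both genotypes for Pdgfra (-0.0209), Cspg4 (-0.0604), Olig2 (-0.143), Nkx2-2 (-0.192) and Qdpr (-0.0109), and in limma-voom for Cspg4 (-0.0052), Olig2 (-0.0177) and Nkx2-2 (-0.0235). Leaving out single libraries gave log2 fold changes of -0.0194 to 0.12 for Pdgfra; -0.036 to 0.12 for Cspg4; -0.14 to 0.0665 for Olig1, -0.0823 to 0.18 for Olig2, -0.0695 to 0.0275 for Sox10, -0.14 to 0.21 for Nkx2-2, -0.21 to 0.0019 for Gpr17, -0.15 to 0.0797 for Nkx6-2, -0.13 to 0.17 for Opalin, -0.0527 to 0.13 for Aspa and -0.0216 to 0.0831 for Qdpr. Equal replicate numbers are not said to pair mice, and same-numbered KO and WT libraries correlated in their deviations from the group means at 0.037, 0.021, 0.053 and -0.28. With the replicate block the median was 0.13, 29 genes lay above 0 and 0 were called. With 4 mice per genotype and this spread, differences of the size seen in the myelin genes were not resolved, while counting error was small for all but the lowest genes, such as Nkx2-2 with 55 to 109 counts per library.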

Other observations

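Axonal signals and glial receptors that govern myelination were measured as well, and of 18 such genes 12 had log2 fold changes of KO over WT above 0 and 6 below, with a median of 0.03 and 0 past the test (edgeR's quasi-likelihood test). Erbb3, a neuregulin receptor of glia, averaged 24.9 ± 2.20 CPM in KO and 22.5 ± 2.41 CPM in WT (SD, n = 4 each), or 0.15 on the log2 scale, and Mertk, a phagocytic receptor of astrocytes and microglia, had 0.19. Lingo1, a neuronal inhibitor of oligodendrocyte differentiation, had 179, 242, 211 and 165 CPM in KO, against 205, 299.6, 216 and 245 CPM in WT, a log2 fold change of -0.28 (95% interval -0.61 to 0.05). Lingo1 was highest in WT replicate 2 and lowest in KO replicate 4, the reverse of the order of these libraries for Mobp. The 8 cortical glutamatergic markers also summed highest in WT replicate 2 (2186 CPM) and lowest in KO replicate 4 (1289 CPM). Their mean log2 deviation was highest in WT replicate 4, at 0.297. How Lingo1 relates to the myelin genes or to cortical tissue was not tested. The secreted protein gene Lgi3 had 0.10.

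Opalin, Aspa and Qdpr shared with Pllp, a further myelin proteolipid gene, a maximum among the WT libraries in replicate 3. Pllp was at 62.6, 61.0, 48.7 and 51.9 CPM in KO, against 62.7, 48.9, 67.6 and 50.2 CPM in WT, with a log2 fold change of -0.03. These genes were set beside each other after their values were seen.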
